A study of Mus musculus with 36 samples.

Results

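The genes described here are 9 members of the CXC chemokine system in mouse knees, sampled 24 h after the anterior cruciate ligament (ACL) was injured: the chemokines Cxcl1, Cxcl2, Cxcl5, Cxcl12, Cxcl14, Cxcl16 and Pf4, and the receptors Cxcr2 and Cxcr4. They were taken by gene name from a deposited count table of 55291 genes, in which all 9 were found, and all 9 were among the 13823 genes with enough counts to test. Cxcl1, Cxcl2 and Cxcl5 reached that filter through the injured knees alone, since they held 0 to 3 counts in each sham library. Cxcl16, with 1 count in sham 3, also needed injured libraries to reach it. For Cxcl1 and Cxcl5 the vehicle knees were needed, since both missed the filter when only sham and inhibitor libraries were fitted. The study asked about signalling through protein kinase C (PKC), enzymes that respond to diacylglycerol and calcium, and through the Hippo kinase cascade, which restrains growth, in osteoarthritis that follows joint trauma.

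The 9 libraries analysed form 3 groups of 3 biological replicates, all from 24 h. Sham mice had no ACL injury, vehicle mice had the injury and received saline, and inhibitor mice had the injury and received a PKC inhibitor. Strain, age and sex of the mice, the identity and dose of the inhibitor, and whether sham mice received vehicle are not given in the sources used here. The libraries were made from whole knee joint RNA after ribosomal RNA depletion, so RNA of all cell types of the sampled tissue is mixed in each. In such bulk samples fewer cells of a type and less RNA per cell cannot be told apart. The other 27 samples of the series, a time course and a larger inhibitor panel, were not analysed here, since no column name in those tables matches a sample label.

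CXC chemokines are small secreted proteins that bind to proteoglycans on cells and matrix and direct the migration of leukocytes through G protein-coupled receptors. Cxcl1, Cxcl2 and Cxcl5 carry a glutamate-leucine-arginine motif before their first cysteines and attract neutrophils through Cxcr2. Cxcl12, made by stromal cells, holds haematopoietic cells in the bone marrow through Cxcr4, and the release of neutrophils from marrow follows the balance of Cxcr2 and Cxcr4 signals.

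The genes of 4 members stand in a single cluster on mouse chromosome 5 (mm10, plus strand), which runs in the order Cxcl5, Ppbp, Pf4, Cxcl3, Cxcl15, Cxcl1 and Cxcl2 over 146.579 kb. Cxcl5 lies from 90759360 to 90761624, Pf4 from 90772435 to 90773383, Cxcl1 from 90891241 to 90893115 and Cxcl2 from 90903871 to 90905938. The other members are scattered: Cxcl12 on chromosome 6 from 117168535 to 117181367 (plus strand), Cxcl14 on chromosome 13 from 56288643 to 56296551 (minus), Cxcl16 on chromosome 11 from 70453983 to 70459984 (minus), Cxcr2 on chromosome 1 from 74153989 to 74161246 (plus) and Cxcr4 on chromosome 1 from 128588199 to 128592293 (minus). None of the 9 overlaps another gene of the table on its own strand, and the counting used strand. Because reads with several matches were counted at each, shared sequence matters. Of the 50-base stretches in the transcripts of Cxcl2, 5.84% also occur in those of its neighbour Cxcl3. This share was 4.01% for Cxcr2, spread over many unrelated genes, 0.693% for Cxcl5 and 0% for the other 6 members. The transcripts came from an earlier GENCODE release than the counts, and the counts from pairs of 100-base reads. Whether reads of Cxcl2 and Cxcl3 were counted for both was therefore not measured.

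The start regions of the neutrophil chemokines are printed because those of Cxcl1, Cxcl2 and their neighbour Cxcl3 share a word of 11 bases, GGGAATTTCCC, the longest that the 250 bases before their transcription starts have in common. It contains a binding sequence of the inflammatory transcription factor NF-kB. The last 100 bases before the start are given 5′ to 3′, from RefSeq on GRCm38.p6, the assembly behind mm10, with the shared word and TATAAA, the TATA box, in capitals. The windows are chr5:90891145-90891244 (plus strand) for Cxcl1, chr5:90903799-90903898 (plus) for Cxcl2, chr5:90786001-90786100 (plus) for Cxcl3, chr5:90772335-90772434 (plus) for Pf4 and chr13:56296552-56296651 (minus) for Cxcl14. Pf4 and Cxcl14 stand beside them because both rose after injury and hold neither word.
Cxcl1: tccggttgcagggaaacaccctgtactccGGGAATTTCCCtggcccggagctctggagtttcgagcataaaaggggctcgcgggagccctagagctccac
Cxcl2: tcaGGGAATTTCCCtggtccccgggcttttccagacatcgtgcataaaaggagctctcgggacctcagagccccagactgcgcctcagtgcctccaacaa
Cxcl3: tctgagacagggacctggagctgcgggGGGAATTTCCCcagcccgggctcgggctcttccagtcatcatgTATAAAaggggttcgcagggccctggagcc
Pf4: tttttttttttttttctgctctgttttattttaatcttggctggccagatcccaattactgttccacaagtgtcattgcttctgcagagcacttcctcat
Cxcl14: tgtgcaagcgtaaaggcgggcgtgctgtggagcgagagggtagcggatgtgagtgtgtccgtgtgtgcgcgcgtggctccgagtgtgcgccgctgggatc

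Searched on both strands, the shared word stood at positions -71 to -61 from the start of Cxcl1, -97 to -87 of Cxcl2 and -73 to -63 of Cxcl3, and in 0.0426% of 32851 start regions of this length (14 of them). Positions count from the RefSeq starts. The windows of Cxcl2 and Cxcl1 run to 90903898 and 90891244, past the starts of the counted genes at 90903871 and 90891241. Their last bases thus lie inside the counted genes, and the positions depend on the start used. Since the shared word was read from these 3 genes, their holding it is no finding. The AP-1 word TGANTCA was in no start region of a member and in 6.75% of all, and TATAAA was in those of Cxcr4, Cxcl3, Ppbp and Cxcl15 and in 12.4% of all. The table held start regions for 7 of the 9 members, not for Cxcl5 and Cxcl16. Of the 14 genes with the shared word, 6 were tested. Apart from Cxcl1, Cxcl2 and Cxcl3 these were Zfp84, Hpn and Il16, whose log2 fold changes of vehicle against sham were -0.40, -1.02 and -0.41 (edgeR adjusted p = 0.802, 0.709 and 0.707).

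Depth and the marker RNA of some tissues differed between the libraries. Total counts were 124 to 202 M per library, but 91.2% to 98.2% of them fell on 7SL RNA genes, leaving 3.28 to 11.9 M elsewhere. The inhibitor libraries 1 and 2 stood apart, with 91.5% and 91.2% on 7SL genes against at least 96.7% in the other 7. Values are given as normalised counts, that is the count divided by the effective library size (TMM) and multiplied by the mean effective size, with SD over n = 3. A single read was worth 0.39 (inhibitor 2) to 1.89 (sham 3) normalised counts. The TMM factors were 1.73 and 3.64 in inhibitor 1 and 2, against 0.63 to 1.01 in the other 7. Inhibitor 1 and 2 held similar counts outside 7SL genes (11.9 and 11.4 M), yet a read was worth 0.75 and 0.39 normalised counts in them. All 8 cartilage and joint lining markers had counts in every library, and they summed to 33.4 to 112 CPM (the count relative to the effective library size) in sham, 51.7 to 77.9 in vehicle and 13.3 to 29.7 in inhibitor knees. Of the 7 tested, 3 fell in inhibitor knees against sham (Col2a1, Col9a1 and Comp), beside 2.68% of all tested genes. Against vehicle 0 passed in edgeR (5 at an unadjusted p under 0.05, beside 13.4% of all tested genes), and DESeq2 called 3 lower (Col2a1, Col9a1 and Prg4). The part of this difference in marker RNA in the inhibitor results was not tested. Inhibitor 1 held the most skeletal muscle marker RNA (294 CPM summed over 12 genes, against 21.9 to 212 elsewhere) and endothelial marker RNA (15.0 CPM over 7 genes, against 1.91 to 4.96).

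After injury with vehicle, Cxcl14, Pf4 and Cxcl2 rose against sham knees, and the other 6 members did not pass the test. Of the 13823 genes tested, 0.304% differed in either direction, 0.282% higher and 0.0217% lower (edgeR quasi-likelihood test, Benjamini-Hochberg adjusted p under 0.05). The values of both groups did not overlap for 8 members, 6 higher and 2 lower in injured knees, where 17.0% of all tested genes did not (8.20% higher and 8.76% lower). At an unadjusted p under 0.05, 7 members and 8.28% of genes differed. Cxcl1, Cxcl2 and Cxcl5 could be tested only because they were high in injured knees, and Cxcl16 also needed injured libraries. Nothing is therefore read from the members' counts against these shares.

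**Figure D1:**
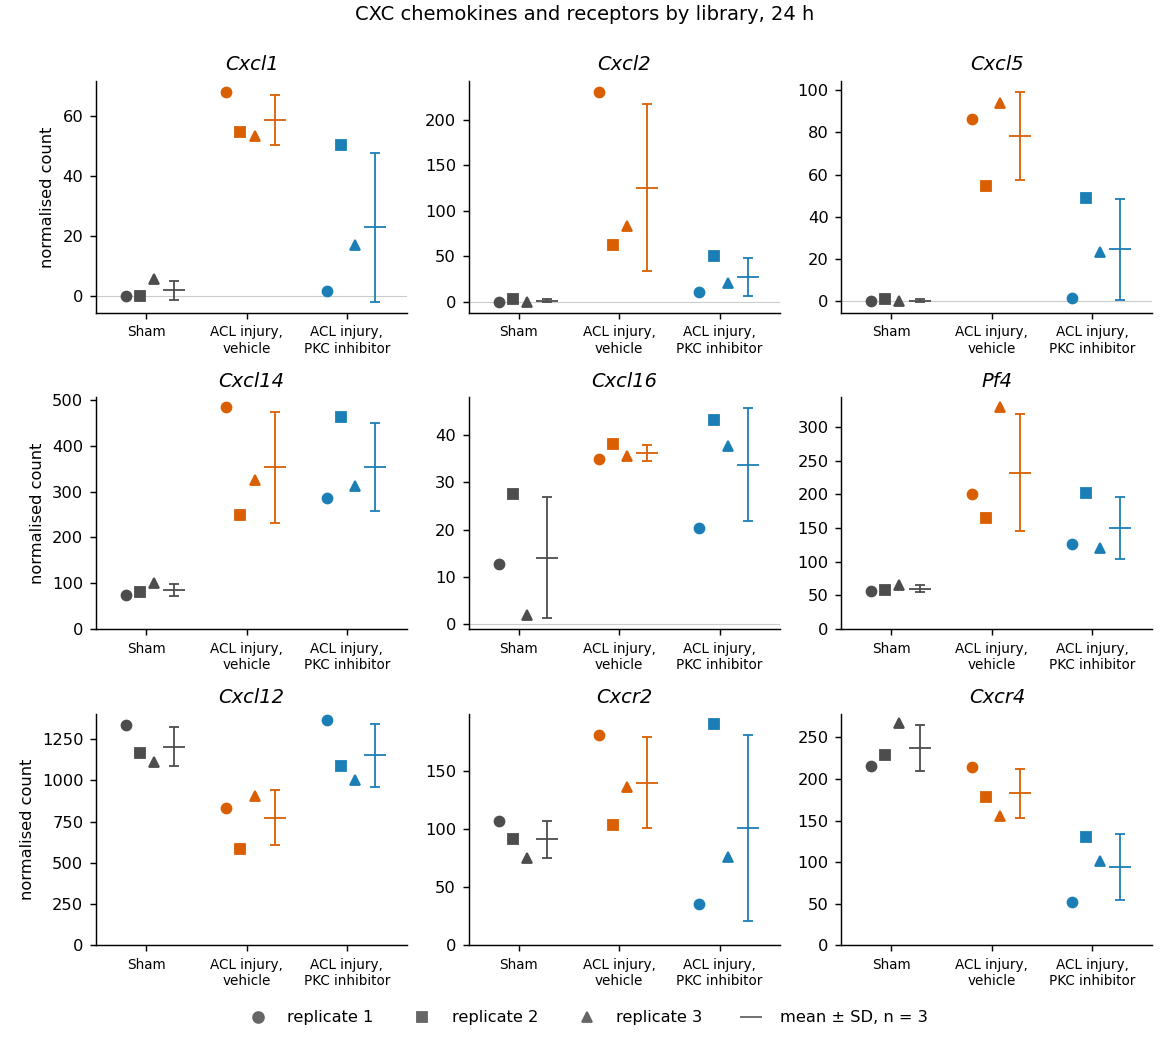
Normalised counts (y axis, starting at or below 0) of the 9 genes in each library, by group (x axis), with the symbol giving the replicate number and the bars the mean ± SD (n = 3). For Cxcl1 the vehicle libraries lie at 53.2 to 68.1, the sham libraries at 0 to 5.66, and the inhibitor libraries spread from 1.50 to 50.3.

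Cxcl2, a chemokine that draws neutrophils through Cxcr2, was at 0, 2.62 and 0 normalised counts in the sham knees and at 231, 61.8 and 83.2 in the vehicle knees. Vehicle 1 was the highest of these, and every vehicle library lay far above every sham library. With 252 raw counts against 2, the ratio of summed counts was 125, with a 95% exact binomial counting interval of 34.2 to 1035, and edgeR's adjusted p was 0.0356. The call ended without any 1 of the sham libraries (adjusted p 0.206 to 0.228), without vehicle 1 (0.0504) or 3 (0.112), and without inhibitor 3 (0.0938).

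Cxcl5, which also signals through Cxcr2, was at 0, 1.31 and 0 in sham knees and at 86.4, 54.7 and 94.1 in vehicle knees. Every vehicle library again lay far above every sham library, with 167 raw counts against 1 and a ratio of 165 (counting interval 29.3 to 6565). Its adjusted p was 0.0997 in edgeR and 0.00157 in DESeq2. In edgeR it was 2.12e-06 when only sham and vehicle libraries were fitted, and 6.53e-06 and 0.0078 without inhibitor 1 and inhibitor 2.

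Cxcl1, the other ligand of this trio, was at 0, 0 and 5.66 in sham knees and at 68.1, 54.7 and 53.2 in vehicle knees. It was the most even of the 3 between vehicle libraries. The raw counts were 126 against 3, a ratio of 41.6 (counting interval 13.9 to 204), with an adjusted p of 0.235 in edgeR and 0.0622 in DESeq2. It was 0.000118 with only the compared groups fitted, and 0.000486 and 0.0284 without inhibitor 1 and inhibitor 2. Of the 9 edgeR fits that left out 1 library, Cxcl1 and Cxcl5 each passed only in these 2. Neither passed without inhibitor 3 (0.333 and 0.195) or without any 1 of the sham or vehicle libraries.

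Cxcl3, which lies between Pf4 and Cxcl1 in the chromosome 5 cluster and is a close relative of Cxcl2, had no count in any sham library. Its normalised counts were 156, 30.9 and 119 in the vehicle knees and 1.50, 79.5 and 32.5 in the inhibitor knees. Against a floor of 3 counts per sham library it was at least 23.4-fold higher with vehicle, with an adjusted p of 0.439 in edgeR, while DESeq2 called it. The pro-platelet basic protein gene Ppbp, between Cxcl5 and Pf4, overlapped between sham (94.2, 202 and 123) and vehicle (188, 128 and 291; log2 fold change 0.53, adjusted p = 0.763). Cxcl15, next to Cxcl3, had no count in any of the 9 libraries.

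Pf4, or platelet factor 4, is stored in platelet granules and is also made by some macrophages. It was at 55.8, 57.7 and 66.0 in sham knees and at 201, 165 and 330 in vehicle knees, so the groups were well separated. It rose 3.89-fold (232 ± 86.7 against 59.8 ± 5.43, log2 fold change 1.96, SE 0.30, adjusted p = 0.0134). Without sham 1, sham 2, vehicle 1 or vehicle 3 the adjusted p was 0.144, 0.106, 0.0504 and 0.0873. Of 11 platelet and megakaryocyte markers, 0 passed the test against sham and 5 had a positive log2 fold change (2 of 11 at an unadjusted p under 0.05 in edgeR, and 0 in DESeq2 after adjustment). Their summed level was 3.11 to 4.49 CPM in sham and 3.21 to 4.26 CPM in vehicle knees. Monocyte and macrophage markers summed to 14.9 to 18.1 CPM in sham and 14.7 to 22.8 CPM in vehicle knees, with 0 of 12 passing in edgeR (4 at an unadjusted p under 0.05, and Cd14 in DESeq2). Their part in the rise of Pf4 was not tested.

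Cxcl14, a chemokine of skin and connective tissue, had the smallest adjusted p of the members. It was at 74.4, 80.0 and 100.0 in sham knees and at 485, 248 and 325 in vehicle knees. The lowest vehicle library held more than any sham library. The gene rose 4.17-fold (353 ± 121 against 84.8 ± 13.4, log2 fold change 2.06, SE 0.28, adjusted p = 0.00583). Its adjusted p was 0.0892, 0.0862 and 0.0504 without sham 1, sham 2 and vehicle 1. The 10 fibroblast markers, from cells that express Cxcl14 and Cxcl12, summed to 507 to 892 CPM in sham and 473 to 539 CPM in vehicle knees, and 0 of them passed in edgeR or DESeq2 (2 at an unadjusted p under 0.05 in edgeR).

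Cxcl16 is made as a transmembrane protein and shed by the proteases Adam10 and Adam17, and its receptor is Cxcr6. It was at 12.8, 27.5 and 1.89 in sham knees and at 34.9, 38.0 and 35.5 in vehicle knees. The raw counts were few (11, 21 and 1 against 21, 32 and 26), and the sham libraries spread widely. The log2 fold change of 1.30 (SE 0.57, 95% interval 0.08 to 2.51) did not pass (adjusted p = 0.551).

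Cxcl12, the stromal ligand of Cxcr4, had the highest mean level per exon length of the 7 chemokines described here in sham knees. It was at 1337, 1167 and 1109 normalised counts there and at 832, 586 and 906 in vehicle knees. All vehicle libraries lay below all sham libraries, yet the difference did not pass (log2 fold change -0.64, SE 0.21, 95% interval -1.09 to -0.19, adjusted p = 0.324). The 6 marrow stromal markers summed to 1.80 to 2.22 CPM in sham and 1.46 to 1.60 CPM in vehicle knees. Of these, 4 lay lower without overlap and 1 higher, beside 8.76% and 8.20% of all tested genes. None of the 6 passed in edgeR or DESeq2 (1 at an unadjusted p under 0.05 in edgeR, beside 8.28% of all tested genes). The part of these cells in the Cxcl12 values was not tested.

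The 2 receptors differed in direction, and neither passed. Cxcr2, carried mostly by neutrophils, was at 107, 91.8 and 75.4 in sham knees and at 181, 103 and 136 in vehicle knees. The groups overlapped (log2 fold change 0.60, SE 0.52, 95% interval -0.58 to 1.79, adjusted p = 0.832). Cxcr4, carried by most leukocytes and their progenitors, was at 215, 229 and 268 in sham knees and at 214, 178 and 155 in vehicle knees. Sham 1 and vehicle 1 were nearly equal (log2 fold change -0.38, SE 0.28, 95% interval -0.97 to 0.21, adjusted p = 0.78).

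**Figure D2:**
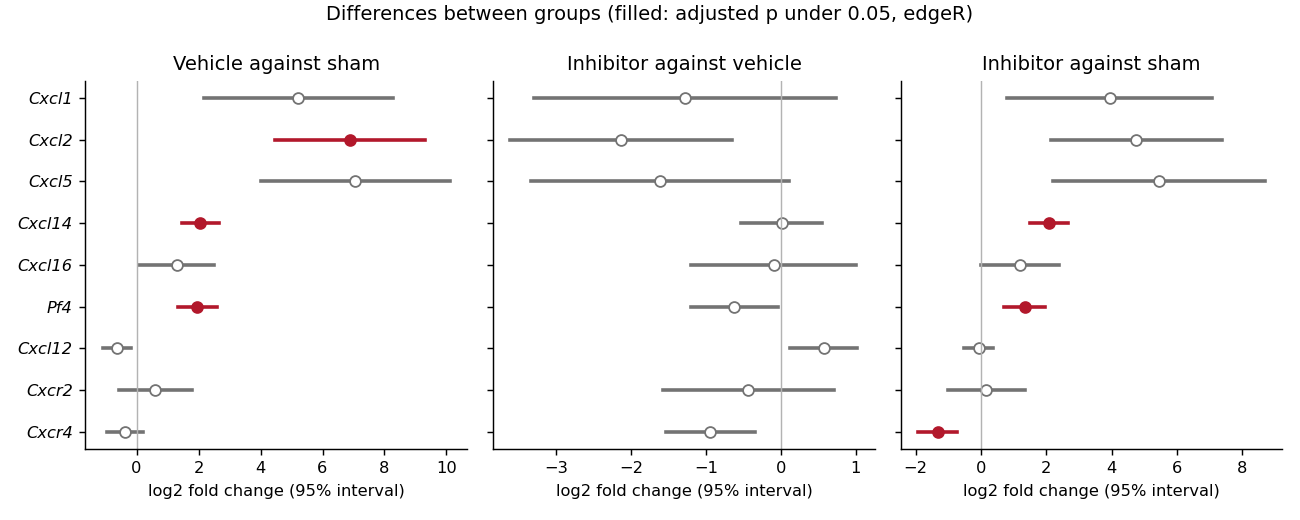
Log2 fold change (x axis) of each gene with its 95% interval in the 3 comparisons, from one edgeR fit of all 9 libraries, with filled red points for an adjusted p under 0.05. In the comparison of inhibitor with vehicle no point is filled, and each panel has its own x axis range.

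With the PKC inhibitor, 0 of the 9 members passed against vehicle, where 0.731% of all tested genes did (0.0289% higher and 0.702% lower, edgeR quasi-likelihood test). At an unadjusted p under 0.05, 4 members differed (Cxcl2, Pf4 and Cxcr4 lower, Cxcl12 higher), against 13.4% of genes, and DESeq2 called 1 member, Cxcl2. The groups did not overlap for 5 members, 4 lower and 1 higher with the inhibitor, against 18.9% of all tested genes (10.4% lower and 8.44% higher). The members' median log2 fold change was -0.62, beside 0.04 over all genes. Cxcl1 and Cxcl5 did not reach the filter without the vehicle libraries, so nothing is read from these counts or from this median.

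The neutrophil chemokines lay lower with the inhibitor, with a wide spread between its libraries. Cxcl2 was at 10.5, 50.3 and 20.8 in the inhibitor knees, below each of the vehicle knees given above (27.2 ± 20.6 against 125 ± 92.1). Its log2 fold change was -2.13 (SE 0.66, 95% interval -3.61 to -0.65), with an adjusted p of 0.196 in edgeR and 0.0241 in DESeq2. Over the edgeR fits that left out 1 library the adjusted p was 0.0707 to 0.382. Cxcl5 was at 1.50, 49.1 and 23.4 (log2 fold change -1.61, SE 0.77, 95% interval -3.34 to 0.11, adjusted p = 0.409). Cxcl1 was at 1.50, 50.3 and 16.9 (log2 fold change -1.28, SE 0.89, 95% interval -3.30 to 0.73, adjusted p = 0.572). With 1 library left out, the log2 fold change of Cxcl2 ranged from -3.05 (without inhibitor 2) to -1.37 (without vehicle 1). That of Cxcl5 ranged from -2.80 to -1.04 and that of Cxcl1 from -2.82 to -0.72, each lowest without inhibitor 2 and highest without inhibitor 1. For all 3 genes inhibitor 1 was the lowest library and inhibitor 2 the highest, just under the lowest vehicle library.

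Inhibitor 1 and inhibitor 2 also differed from the rest of their group in marker RNA. Inhibitor 1, with 2, 14 and 2 raw counts of Cxcl1, Cxcl2 and Cxcl5, was the library rich in muscle and endothelial marker RNA. Inhibitor 2 had the highest sum of 13 neutrophil markers in that group (107 CPM, against 57.4 and 49.0 in inhibitor 1 and 3, 49.7 to 63.4 in vehicle and 90.2 to 122 in sham knees). The part of these differences in the chemokine values was not tested.

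Cxcl14 was at 287, 463 and 312 in inhibitor knees and overlapped with vehicle (354 ± 95.4 against 353 ± 121). Its log2 fold change of 0.01 had a 95% interval of -0.53 to 0.55 (adjusted p = 0.991). The summed fibroblast markers were lower in inhibitor than in vehicle knees (178 to 399 against 473 to 539 CPM), but 6 of 10 had a positive log2 fold change, with a median of 0.10. None of the 10 passed in edgeR (1 at an unadjusted p under 0.05), and DESeq2 called Col1a1 lower. Their part in the Cxcl14 values was not tested. Pf4 was at 126, 203 and 121, and only inhibitor 2 reached the range of the vehicle libraries (log2 fold change -0.62, SE 0.27, adjusted p = 0.341). Cxcl16 was at 20.3, 43.2 and 37.6 (log2 fold change -0.10, 95% interval -1.20 to 1.01, adjusted p = 0.958).

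Cxcl12 was at 1365, 1088 and 1002 in inhibitor knees, above each vehicle library and across the sham range. The difference from vehicle did not pass (log2 fold change 0.57, SE 0.21, 95% interval 0.12 to 1.02, adjusted p = 0.241). Its receptor Cxcr4 was at 51.8, 130 and 101, below each vehicle library. That difference did not pass in the fit of all 9 libraries (log2 fold change -0.94, SE 0.28, 95% interval -1.54 to -0.34, adjusted p = 0.146). It passed in edgeR with no filter on low counts (adjusted p = 0.025), where Cxcr4 was not the only member called. Cxcr2 was at 36.0, 191 and 76.6, which spans both other groups (log2 fold change -0.43, SE 0.51, adjusted p = 0.759).

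Against sham, 3 of the 9 members passed in inhibitor knees, where 3.95% of all tested genes did: Cxcl14 and Pf4 rose (1.27% of genes were called higher) and Cxcr4 fell (2.68% lower). The groups did not overlap for 5 members, 4 higher and 1 lower, where 22.9% of all genes did not (11.2% higher and 11.6% lower). At an unadjusted p under 0.05, 7 members and 18.0% of genes differed. Nothing is read from these counts either, for the reason given for vehicle against sham. This comparison shares its sham libraries with that of vehicle against sham, and its inhibitor libraries with that of inhibitor against vehicle, so the results are not independent.

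Cxcl14 rose 4.20-fold (354 ± 95.4 against 84.8 ± 13.4, adjusted p = 0.00321), with an adjusted p of at most 0.0199 when any 1 library was left out. Pf4 rose 2.53-fold (150 ± 45.8 against 59.8 ± 5.43, adjusted p = 0.0204). Its call ended without sham 1, 2 or 3 or inhibitor 2 (adjusted p 0.0987, 0.0744, 0.0653 and 0.0806). In the same knees 1 of 11 platelet markers, Itga2b, fell (summed level of the list 2.05 to 3.23 CPM) and 1 of 12 monocyte and macrophage markers, Cd68, rose (17.1 to 25.7 CPM), and their part was not tested. Cxcr4 fell 2.50-fold (94.4 ± 39.6 against 237 ± 27.2, log2 fold change -1.32, SE 0.28, adjusted p = 0.0188). Its adjusted p was 0.0601, 0.0548 and 0.0744 without sham 1, 2 and 3, and 0.0618 with only the compared groups fitted.

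Marker lists of leukocytes went in different directions in the same comparison. Of 7 tested B lineage markers, 4 fell against sham, including Cd79a and Cd79b, the signalling chains of the B cell receptor, and its inhibitory coreceptor Cd22, and the summed level of all 8 markers was 3.29 to 3.77 CPM in sham, 2.68 to 2.80 in vehicle and 1.52 to 2.26 in inhibitor knees. Cd22 was at -2.37 on the log2 scale (adjusted p = 0.00617). Of 13 neutrophil markers, 5 fell, all of them genes of granule proteins that are made in the marrow: Ltf, Camp, Ngp, Elane and Mpo, with Ltf at -2.11 (adjusted p = 0.00216). For both lists this stands beside 2.68% of all tested genes that were called lower. The other 8 neutrophil markers did not pass, and 2 of the 13 had a positive log2 fold change. Of 12 monocyte and macrophage markers, 11 had a positive log2 fold change and Cd68 rose, while DESeq2 called 3 higher (Cd14, Cd68 and Mrc1). The part of these cells in the Cxcr4 difference was not tested.

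The means of the neutrophil chemokines in inhibitor knees lay between those of the other groups, and none of the 3 genes passed against sham in the edgeR fit of all 9 libraries. Cxcl2 had 159 raw counts against 2 (ratio 36.6, counting interval 9.98 to 305, adjusted p = 0.0541), Cxcl5 146 against 1 (ratio 67.3, interval 11.9 to 2676, adjusted p = 0.0716) and Cxcl1 144 against 3 (ratio 22.1, interval 7.42 to 109, adjusted p = 0.172). Inhibitor 2 gave 129, 126 and 129 of these inhibitor counts. DESeq2 called Cxcl2 (adjusted p = 0.00185) and Cxcl5 (0.0132), and edgeR called all 3 without inhibitor 1 (0.0112, 0.000101 and 0.00212). Cxcl16 (log2 fold change 1.20, 95% interval 0.01 to 2.39, adjusted p = 0.272), Cxcl12 (-0.06, interval -0.51 to 0.38, adjusted p = 0.907) and Cxcr2 (0.17, interval -0.99 to 1.33, adjusted p = 0.899) did not pass.

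**Figure D3:**
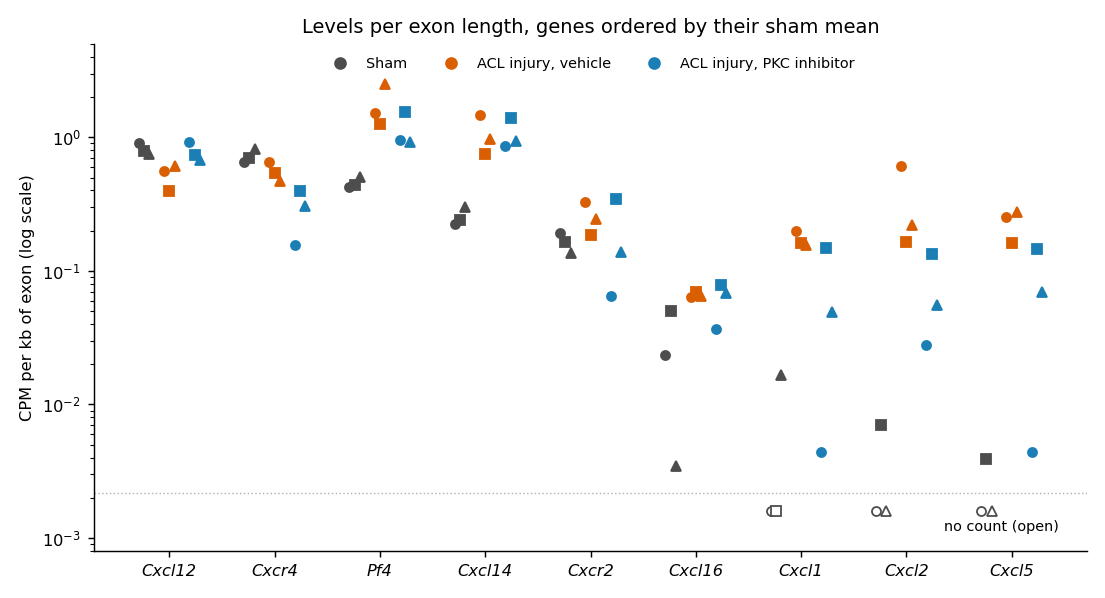
Level per exon length (CPM per kb, log scale) of the 9 genes in each library, ordered from left to right by their mean in sham knees, with open symbols under the dotted line for libraries without a count. Cxcl12 has the highest mean in sham knees (0.746 to 0.899, overlapping with Cxcr4), while Pf4 and Cxcl14 lie above it in every vehicle library.

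Per exon length, the order of the members differed between sham and injured knees. In sham knees the mean levels were 0.81 CPM per kb for Cxcl12, 0.722 for Cxcr4, 0.456 for Pf4, 0.255 for Cxcl14, 0.165 for Cxcr2, 0.0256 for Cxcl16, 0.00553 for Cxcl1, 0.00232 for Cxcl2 and 0.00129 for Cxcl5. Neighbours from Cxcr4 down to Cxcl16 did not overlap between libraries, while Cxcl12 and Cxcr4 did, as did the 4 lowest genes. In vehicle knees Pf4 led at 1.77 and Cxcl14 followed at 1.06, overlapping with each other and lying above Cxcr4 at 0.556. From Cxcr4 to Cxcl1 (0.172) each gene overlapped with the next, and Cxcl16 was last at 0.0658. In inhibitor knees Pf4 (1.14), Cxcl14 (1.06) and Cxcl12 (0.775) came first, each overlapping with the next, and Cxcr4 stood below them at 0.287.

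The make-up of the 7 chemokines as a share of their summed level per exon length follows from these levels. Cxcl12 made up 57.2%, 51.4% and 47.5% of it in sham knees, 11.9%, 13.3% and 12.6% with vehicle and 32.6%, 17.5% and 24.3% with the inhibitor. The 3 groups did not overlap in this share. Cxcl1, Cxcl2 and Cxcl5 together made up 0%, 0.71% and 1.06% in sham, 22.8%, 16.4% and 13.6% in vehicle and 1.31%, 10.2% and 6.26% in inhibitor libraries. Here too the groups were apart, but inhibitor 1 (18 raw counts of the 3 genes) lay next to sham 3 (3 raw counts). The gap between these 2 libraries thus rests on few reads. Pf4 held 27.1% to 32.1%, 32.7% to 52.2% and 33.2% to 37.0% in the 3 groups. A share falls when another gene rises, so these values describe the mixture and not single genes.

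**Figure D4:**
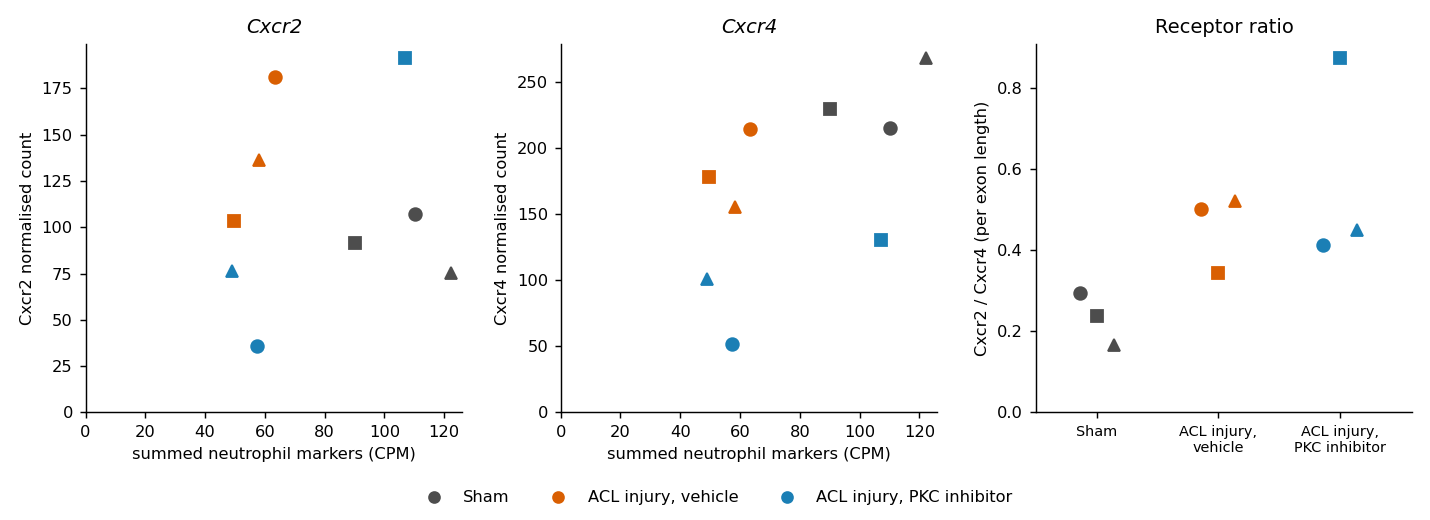
Left and middle: normalised counts of Cxcr2 and Cxcr4 (y axes) against the summed level of 13 neutrophil markers in CPM (x axes), 1 point per library. Right: ratio of Cxcr2 to Cxcr4 per exon length by group, with sham libraries at 0.167 to 0.295 and injured libraries at 0.344 to 0.872.

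The ratio of the 2 receptors, a measure chosen after the levels were seen, was 0.295, 0.237 and 0.167 in sham libraries. It was 0.501, 0.344 and 0.52 in vehicle and 0.413, 0.872 and 0.449 in inhibitor libraries. Sham lay below both injured groups, whereas these overlapped with each other. The exact two-sided permutation p over samples was 0.1 for vehicle against sham and for inhibitor against sham, which is the smallest that 3 against 3 allows, and 0.7 for inhibitor against vehicle (0.15, 0.15 and 0.7 adjusted over the 3 comparisons). The summed neutrophil markers were lower in vehicle than in sham knees (49.7 to 63.4 against 90.2 to 122 CPM), and 1 of 13, Ltf, fell (log2 fold change -1.41, adjusted p = 0.0288). At an unadjusted p under 0.05, 10 of the 13 differed, beside 8.28% of all tested genes. Without overlap 7 lay lower, beside 8.76% of all tested genes. Of the 13 markers, 2 had a positive log2 fold change, and DESeq2 called 3 lower (Camp, Ltf and Ngp). Their 2 most abundant genes per exon length, S100a9 and S100a8, subunits of calprotectin, had log2 fold changes of -0.89 and -0.86 (adjusted p = 0.383 and 0.384).

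The patterns of the members over the 9 libraries, measured by Pearson's r of log2 CPM, were compared with each other and with all tested genes. These libraries share group differences and depth, so r describes them and carries no test. The neutrophil chemokines were close to each other, with r = 0.96 for Cxcl2 and Cxcl5, 0.94 for Cxcl1 and Cxcl5 and 0.89 for Cxcl1 and Cxcl2. Pf4 was as close to Cxcl2 and Cxcl5 (0.91 each), and Cxcl14 had r = 0.90 with Cxcl2 and 0.89 with Pf4. Among all tested genes the 3 most like Cxcl2 were Csrnp1, Fosl1 and Serpina3m (r = 0.98, 0.97 and 0.97), and those most like Cxcl5 were Pcsk5, its cluster neighbour Cxcl3 and Tnfaip6 (0.98, 0.98 and 0.98). For Cxcl1 they were Slc2a1, which encodes a glucose transporter, Ddx21 and Slc39a14, a zinc and iron transporter gene (0.98, 0.97 and 0.97).

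For Pf4 the nearest genes were Fos, Saa3 and Adgra2 (r = 0.98, 0.97 and 0.97), and for Cxcl14 Gm10420, Rps2-ps10 and the lysosomal protease gene Ctsl (0.98, 0.98 and 0.98). Cxcl16 was nearest to Morrbid, Armcx2 and Trim28 (0.98, 0.97 and 0.95), and Cxcl12 to Mpc2, Cox4i1 and Pgm2l1 (0.95, 0.93 and 0.91), of which Mpc2 and Cox4i1 act in mitochondria. Cxcr2 was nearest to Zfp36, Jaml and Fmnl1 (0.96, 0.95 and 0.93) and Cxcr4 to Gm30211, Dok3 and Spn (0.96, 0.96 and 0.96), where Jaml, Fmnl1, Dok3 and Spn are leukocyte genes. Serpina3m belongs to a family of near-identical paralogues and Rps2-ps10 is a pseudogene, so the counts of both are uncertain.

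Of 8 further CXC chemokines, Cxcl3 and Ppbp reached the filter and 0 passed the edgeR test in any comparison. At an unadjusted p under 0.05, 1, 0 and 1 of them differed for vehicle against sham, inhibitor against vehicle and inhibitor against sham, and DESeq2 called Cxcl3 in the first and the last of these. Cxcl9 and Cxcl10, induced by interferon, had 17 and 12 raw counts over the sham libraries, 7 and 14 over the vehicle and 18 and 28 over the inhibitor libraries. Cxcl13, which attracts B cells, had 1, 5 and 50. Cxcl11 had 0, 3 and 2, and Cxcl17 0, 0 and 2.

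Of 8 other CXC and atypical receptors, 4 were tested and 0 passed in any comparison in edgeR or DESeq2 (1, 0 and 1 at an unadjusted p under 0.05 in edgeR, in the same order). Ackr3, a scavenger receptor of Cxcl12, was at 17.4, 32.8 and 9.43 in sham, 44.9, 34.5 and 47.7 in vehicle and 57.8, 31.2 and 31.2 in inhibitor knees. Its vehicle libraries all lay above sham (log2 fold change 1.05, adjusted p = 0.53). Cxcr6, the receptor of Cxcl16, had 1, 0 and 2 raw counts over the groups, and Cxcr1, the other receptor of neutrophil chemokines, had 3, 4 and 18. Ackr1, which overlaps Cadm3 on its strand, and Ackr2 had log2 fold changes of 0.35 and -0.08 against sham in vehicle knees (adjusted p = 0.93 and 0.992).

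Of 22 tested genes that carry the signal from chemokine receptors, 0 passed between vehicle and sham in edgeR or DESeq2 (0 at an unadjusted p under 0.05 in edgeR), with a median log2 fold change of -0.08. Plcb2, a phospholipase activated by G protein subunits, was the 1 gene that fell with the inhibitor against vehicle (129.9 ± 29.8 with it and 341 ± 85.3 without, -1.40 on the log2 scale, SE 0.25, adjusted p = 0.0234). It also fell against sham (adjusted p = 0.00321). The G protein subunits Gnai2 and Gnb1 and the GTPase Rac2 had log2 fold changes of 0.01, 0.09 and -0.44 between vehicle and sham (adjusted p = 0.996, 0.954 and 0.789).

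Of 9 proteases that cut or shed CXC chemokines, 0 passed in edgeR between vehicle and sham or between inhibitor and vehicle (3 each at an unadjusted p under 0.05, with 0 and 1, Adam10, called in DESeq2), and 2 fell in inhibitor knees against sham. These were the gelatinase gene Mmp9 (log2 fold change -1.06, adjusted p = 0.0449) and the neutrophil elastase gene Elane (-1.40, adjusted p = 0.0154). Of 10 NF-kB feedback genes, 9 had a positive log2 fold change between vehicle and sham (median 0.45) and 0 passed in edgeR or DESeq2 (1 at an unadjusted p under 0.05 in edgeR). Nfkbia, the main inhibitor of NF-kB, was at 0.38 (SE 0.22, adjusted p = 0.703). Nfkbiz, a nuclear cofactor of NF-kB, fell with the inhibitor against vehicle (57.9 ± 17.9 against 133 ± 10.4, log2 fold change -1.19, SE 0.26, adjusted p = 0.0458).

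**Figure D5:**
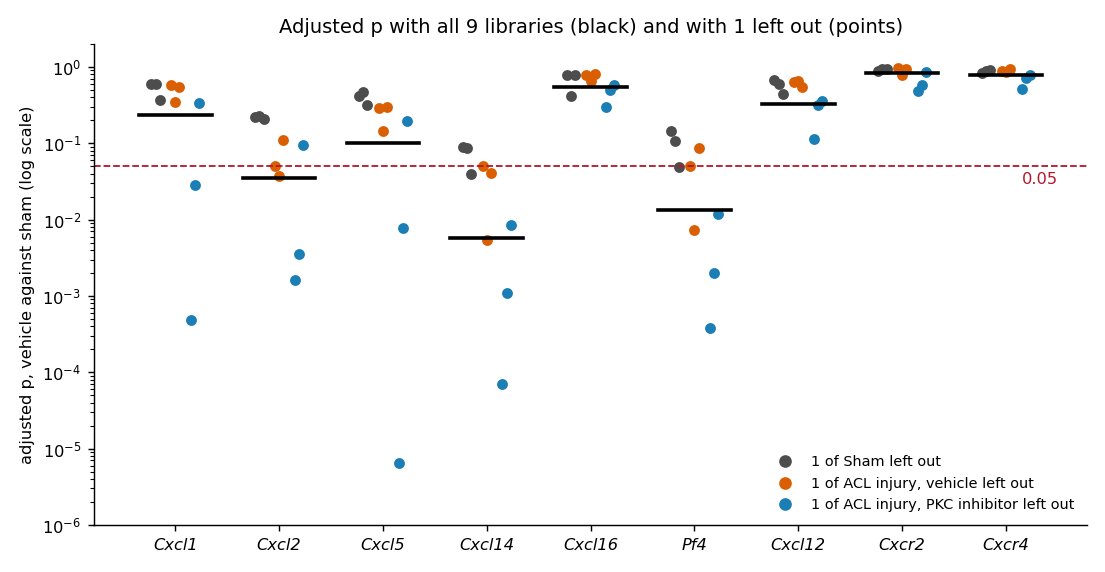
Adjusted p (y axis, log scale) of vehicle against sham for each gene, with all 9 libraries (black bar) and with each library left out in turn (points, coloured by the group that lost a library), and the threshold of 0.05 as a dashed line. Cxcl1 and Cxcl5 fall below the line when inhibitor 1 or inhibitor 2 is left out, and Cxcl2, Cxcl14 and Pf4 rise above it when sham 1 is left out.

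The plot of adjusted p with each library left out shows that the number of members called between vehicle and sham moved with single libraries, also with those of the inhibitor group, which enter the estimate of spread. It was 0 without sham 1, sham 2 or vehicle 1, and 5 without inhibitor 1 or without inhibitor 2. The direction of all 9 members was the same in these 9 fits: higher with vehicle for Cxcl1, Cxcl2, Cxcl5, Cxcl14, Cxcl16 and Pf4 and for Cxcr2, lower for Cxcl12 and Cxcr4.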

How the data were processed

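The 9 libraries of sham, vehicle and inhibitor knees were analysed from a table of raw counts per gene that the authors deposited. Columns were matched to samples by name. Per the file headers, the counts were made with featureCounts 2.0.1 on read pairs, reverse strand, over exons of GENCODE vM25, with multi-mapping reads counted at each location and overlapping genes each given the read. HISAT2 and mm10 are named in the submitters' processing notes. The 27 columns of per-sample values in the other tables match no label and were not used.

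Genes were filtered with filterByExpr (13823 of 55291 kept), scaled by TMM and fitted with edgeR 4.0.16 (robust quasi-likelihood, 1 mean per group, 9 libraries, R 4.3.3). Two-sided p-values were adjusted (Benjamini-Hochberg) over the whole table of tested genes, and 0.05 was the threshold. The SE was taken from the log2 fold change and the F statistic, and intervals are 95%. Where a group held 1 to 3 counts, the ratio of summed counts has an exact binomial interval, which covers counting error only. Log2 CPM used a prior count of 2. Alternatives were DESeq2 1.42.0, RLE scaling, no filter, compared groups only, a replicate block, removal of 7SL genes, and left-out libraries. The fit was tested on simulated data. Ratios and figures used Python 3.11.15, pandas 2.3.3, scipy 1.17.1 and matplotlib 3.10.9.

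Members and gene lists were chosen with earlier results of these data known. By rule, genes named from a list passed the threshold in a comparison or were among its 3 with the highest mean CPM per kb; for each member the 3 tested genes with the highest r were named. Exceptions, such as genes of the chromosome 5 cluster, those with the shared word and low-count pathway genes, were chosen after their values were seen. The labels call replicates biological. Whether each is 1 animal is not given in the sources used here.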

Additional observations from a re-analysis of the deposited data

How the results depend on the processing

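The counts below are in the order vehicle against sham, inhibitor against vehicle, inhibitor against sham, where the fit of all 9 libraries called 3, 0 and 3 members and 42, 101 and 546 genes. With no filter on low counts, 5, 3 and 6 members were called (all genes 262, 554 and 1056). DESeq2 called 4, 1 and 5 members (all genes 155, 355 and 885). With only the compared groups fitted, 5, 0 and 2 members were called (all genes 291, 3 and 198). Cxcl1 and Cxcl5 did not reach the filter in the last of these fits and have no value there. Without inhibitor libraries 1 and 2 together, where the remaining inhibitor library is assumed to vary like the other groups, 5, 0 and 2 members were called (all genes 301, 20 and 174). RLE scaling and removal of 7SL genes kept the member counts at 3, 0 and 3. With the replicate block, 2, 0 and 3 members were called (all genes 24, 103 and 420), and Cxcl2 no longer passed for vehicle against sham (adjusted p = 0.0943). Replicate numbers did not pair the samples: same-numbered libraries correlated in their deviations from group means at -0.24 (sham 1 and inhibitor 1) to 0.07.

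Leaving out 1 library gave 0 to 5 called members in the first comparison (all genes 1 to 234), 0 in the second in each of the 9 fits (0 to 256) and 1 to 6 in the third (141 to 841). The lowest counts of all genes came without sham 1, vehicle 2 and sham 1, the highest without inhibitor 1, 3 and 1. Signs turned for 4 differences, none of which had passed. Cxcl14, inhibitor against vehicle, ranged from -0.25 to 0.30 over these fits, with -0.21 and -0.05 without vehicle 2 and 3, and was -0.18 without inhibitor 1 and 2. Cxcl16 in that comparison ranged from -0.36 to 0.17 and was 0.057 without inhibitor 1 and 2. For inhibitor against sham, Cxcl12 ranged from -0.20 to 0.018, with 0.014 without sham 1, and Cxcr2 from -0.74 to 0.59, with -0.25 without inhibitor 1 and 2. The cause was not tested. The sham values of Cxcl1, Cxcl2, Cxcl5 and Cxcl16 rest on few counts. Counts outside 7SL genes were 3.76 to 5.25 M in sham and 3.28 to 4.97 M in vehicle libraries. The part of depth in the sham values was not tested.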
